A study of Saccharomyces cerevisiae with 37 samples.

Results

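The genes described here encode the translation factors of budding yeast (Saccharomyces cerevisiae), the soluble proteins that start, extend and end the synthesis of a polypeptide on the ribosome. A list of 35 genes was matched to probe sets by the symbol in the array's platform annotation, and the brightest probe set stood for a gene that had several. The list holds 24 initiation, 9 elongation and 2 termination factors. A probe set was found for 32 of the 35 genes, among 5449 genes on the array. All 32 lay among the 3899 genes whose mean log2 level exceeded a filter at 11.04. The genes TIF1, TEF1 and EFT1 had no probe set listed under their own symbols. The probe sets named TIF2, TEF2 and EFT2 are shared with near-identical copies of the same proteins, so each of these values sums over a pair of genes.

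The study followed mRNA decay in 4 cultures of strain Y262, grown at 26 °C in the rich medium YPD, whose RNA polymerase II is temperature-sensitive. The oxidative stress culture had received 0.3 mM hydrogen peroxide for 25 min before transcription was stopped. The DNA damage culture had received 0.1% methyl methanesulfonate, an alkylating agent usually abbreviated MMS, for 40 min. The labels name both durations together, and they are read here in the order of the agents. A pair of reference cultures, reference 1 and reference 2, received no agent. At time 0 all 4 cultures were shifted to 37 °C through dilution with as much medium again, warmed to 49 °C, so heat and dilution are common to every culture, the references included. Samples were taken from 0 to 60 min, with a second, technical array at time 0; reference 2 is used here up to 30 min. The data comprise 37 arrays, with 10 for oxidative stress, 10 for DNA damage, 10 for reference 1 and 7 for reference 2.

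Translation begins when eIF2 carries initiator methionyl-tRNA to the small ribosomal subunit, where eIF1, eIF1A, eIF3 and eIF5 help to select the start codon, and eIF5B then joins the large subunit. The eIF4 factors bring in the mRNA through its cap, and eIF2B recharges eIF2 with GTP, the step that the kinase Gcn2 restrains under stress. Elongation uses eEF1A and its exchange factor eEF1B to deliver aminoacyl-tRNA, eEF2 to translocate, and in fungi the additional ATPase eEF3. The release factors eRF1 and eRF3 end the chain.

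Levels are log2 intensities. A relative level or slope is the gene's value minus that of the median gene among the 3899 tested, and slopes are in log2 units per 10 min over 0 to 30 min. The median gene's slope was -0.29 in the oxidative stress culture and -0.32 in the DNA damage culture, against -0.40 in reference 1 and -0.30 in reference 2. Its level at time 0 was 13.33 in oxidative stress and 12.89 in DNA damage, against 13.03 in reference 1 and 12.86 in reference 2. The technical arrays of time 0 differed in the median gene by 0.36 in oxidative stress and 0.018 in DNA damage, against 0.46 in reference 1 and 0.13 in reference 2. Offsets of this size thus arose between arrays of the same culture. The 18 bacterial spike-in probe sets also drifted down, by median slopes between -0.060 and -0.091. The 8 hybridisation control probe sets fell more, by -0.20 in oxidative stress and -0.37 in DNA damage, against -0.27 in reference 1 and -0.21 in reference 2. In DNA damage that was steeper than the median gene. Half-lives are given as the slopes stand, without correction for these drifts, which differed between cultures. Poly(T) priming was used, so a change in tail length could alter a signal, and in bulk cultures fewer cells and less RNA per cell cannot be told apart. Each stress is 1 culture, so the p-values below measure only the spread between the reference cultures, and the stressed cultures are assumed to vary like them. For differences between cultures on deposited values, limma pooled that spread over all genes, wholly for slopes and almost wholly for levels. The SE of a slope difference from the references over 0 to 30 min was 0.16 for every gene. These p-values therefore do not reflect a gene's own variation between the references. Differences between cultures were tested on the deposited scale, and their standard errors and p-values belong to the deposited difference, given first for the members that turn on it. The relative difference is what remains after that of the median gene is taken off, and tests on arrays centred on their median bear on it.

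The first question was how fast each factor's mRNA disappeared in unstressed cells. In the reference cultures 16 of the 32 transcripts differed in slope from the median gene (limma, adjusted p under 0.05), against 31.6% of all genes tested. The count was 7 with no filter on low values, and 0 over 5 to 30 min, a window in which no gene on the array was called. Of the 16, 15 decayed faster, against 17.4% of all genes, and 1 decayed slower, against 14.3%. Initiation factors made up 14 of the 15 fast transcripts and the release factor SUP45 was the other. The median relative slope was -0.21 for the 23 initiation factors and -0.0080 for the 7 elongation factors. For comparison, 9 of 26 accessory translation genes were called faster and 1 slower, with a median of -0.091. Among 20 cytosolic aminoacyl-tRNA synthetases 5 were called faster (median -0.080), and among 127 cytosolic ribosomal proteins 12 were (median -0.012). The fastest accessory gene was LIA1 at -0.95, whose product modifies eIF5A, followed by GCD10 at -0.58, a tRNA methyltransferase subunit, and the RNA helicase gene DED1 at -0.46.

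**Figure D1:**
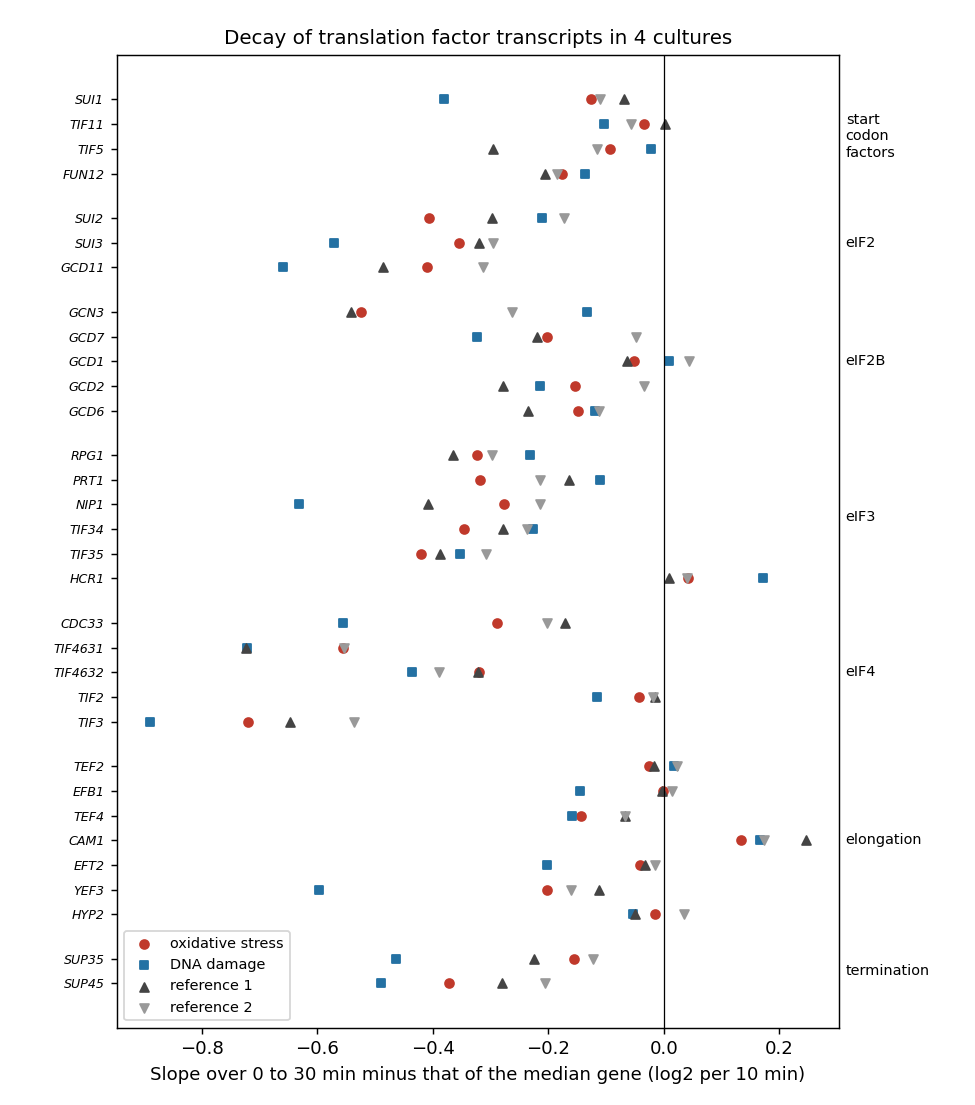
Relative decay slope (log2 per 10 min over 0 to 30 min, minus the median gene) of the 32 translation factor transcripts, grouped by step of translation, with 1 marker for each culture. Initiation factors lie mostly below 0, down to -0.89 for TIF3 in the DNA damage culture, while 3 of 7 elongation factors were below 0 in all 4 cultures.

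The eIF4 group held the fastest transcripts, with 4 of 5 measured members called faster and a median relative slope of -0.36. TIF4631 (YGR162W) encodes one of the yeast copies of the scaffold eIF4G. Its half-life was 11.8 min in oxidative stress and 9.56 min in DNA damage, against 8.93 min in reference 1 and 11.7 min in reference 2. Its reference slope was -0.64 relative to the median gene (SE 0.06; limma, adjusted p = 0.00822), and it ranked 109 from the fastest of 3899 genes. TIF3 (YPR163C) encodes eIF4B, a partner of the helicase eIF4A. TIF3 had a half-life of 9.89 min in oxidative stress and 8.23 min in DNA damage, against 9.58 min in reference 1 and 11.9 min in reference 2. Its reference slope was -0.59 (SE 0.05; limma, adjusted p = 0.00684), at rank 132. All 4 cultures thus lost these transcripts with half-lives under those of the median gene, which lay between 25.2 and 34.4 min.

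TIF4632 (YGL049C), the other eIF4G gene, had a half-life of 16.4 min in oxidative stress and 13.1 min in DNA damage, against 13.9 min in reference 1 and 14.5 min in reference 2. Its reference slope was -0.36 (limma, adjusted p = 0.0105). TIF4631 had a more negative slope than TIF4632 in every culture, by -0.24 in oxidative stress and -0.29 in DNA damage, against -0.40 in reference 1 and -0.16 in reference 2. This difference between the copies has no test of its own, and the TIF4632 signal averaged 11.27, close to the filter. CDC33 (YOL139C), the cap-binding protein eIF4E, had a slope of -0.19 (limma, adjusted p = 0.033). CDC33 had a half-life of 17.3 min in oxidative stress and 11.4 min in DNA damage, against 17.6 min in reference 1 and 19.9 min in reference 2. TIF2, one of the genes for eIF4A, had a slope of -0.02 and was not called.

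All 3 subunits of eIF2 were called faster. The relative reference slope was -0.40 for GCD11 (YER025W), the GTP-binding gamma subunit (limma, adjusted p = 0.0139), -0.31 for SUI3 (YPL237W), the beta subunit, and -0.23 for SUI2, the alpha subunit that Gcn2 phosphorylates. GCD11 had a half-life of 14.3 min in oxidative stress and 10.2 min in DNA damage, against 11.3 min in reference 1 and 16.3 min in reference 2. That of SUI3 was 15.5 min in oxidative stress and 11.2 min in DNA damage, against 13.9 min in reference 1 and 16.7 min in reference 2. The SUI2 transcript had 14.3 min in oxidative stress and 18.7 min in DNA damage, against 14.4 min in reference 1 and 21.1 min in reference 2. The beta and gamma subunits thus had their shortest half-life in DNA damage, and the alpha subunit did not. Among the 5 subunits of eIF2B only GCN3 (YKR026C), the regulatory alpha subunit, passed the test, at -0.40 (SE 0.08; limma, adjusted p = 0.0249). GCN3 had a half-life of 12.3 min in oxidative stress and 21.9 min in DNA damage, against 10.7 min in reference 1 and 17.7 min in reference 2. Values for GCD6, GCD2, GCD7 and GCD1, the remaining subunits, lay between -0.17 and -0.01.

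The eIF3 complex had 5 of 6 subunits called. Relative reference slopes were -0.35 for TIF35, -0.33 for RPG1 (YBR079C), -0.31 for NIP1 (YMR309C), -0.26 for TIF34 and -0.19 for PRT1. HCR1 (YLR192C), which encodes the loosely bound j subunit, was the exception at 0.02. TIF35, which encodes the g subunit, had a half-life of 14.1 min in oxidative stress and 14.8 min in DNA damage, against 12.8 min in reference 1 and 16.4 min in reference 2. The a subunit RPG1 had 16.3 min in oxidative stress and 18.0 min in DNA damage, against 13.1 min in reference 1 and 16.7 min in reference 2. The half-life of NIP1, the c subunit, was 17.6 min in oxidative stress and 10.45 min in DNA damage, against 12.4 min in reference 1 and 19.4 min in reference 2. DNA damage was the culture with the longest half-life for RPG1 and the shortest for NIP1. TIF34, the i subunit, had 15.7 min in oxidative stress and 18.1 min in DNA damage, against 14.8 min in reference 1 and 18.6 min in reference 2. PRT1, the b subunit, had 16.4 min in oxidative stress and 23.0 min in DNA damage, against 17.8 min in reference 1 and 19.4 min in reference 2. The half-life of HCR1 was 40.1 min in oxidative stress and 65.3 min in DNA damage, against 25.8 min in reference 1 and 38.3 min in reference 2. In no culture was any other eIF3 subunit as long-lived as HCR1. Of the start codon factors, FUN12, which encodes eIF5B, was called at -0.20 (limma, adjusted p = 0.0293). FUN12 had a half-life of 21.4 min in oxidative stress and 21.7 min in DNA damage, against 16.6 min in reference 1 and 20.6 min in reference 2. TIF5 (eIF5), SUI1 (eIF1) and TIF11 (eIF1A) had slopes of -0.21, -0.09 and -0.03 and were not called.

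No elongation factor was called faster. Relative reference slopes of TEF2 (eEF1A), EFB1 (the catalytic subunit of eEF1B), HYP2 (eIF5A, a factor that aids elongation) and EFT2 (eEF2) lay between -0.02 and 0.00. TEF4 had -0.07. The slope of YEF3 (YLR249W), which encodes eEF3, was -0.14 (limma, adjusted p = 0.0683). CAM1 (YPL048W), one of the genes for eEF1B gamma, was the slow transcript, at 0.21 (SE 0.04; limma, adjusted p = 0.0294). CAM1 had a half-life of 63.4 min in oxidative stress and 63.1 min in DNA damage, against 66.3 min in reference 1 and 78.5 min in reference 2. Its paralogue in the same complex, TEF4 (YKL081W) had 23.0 min in oxidative stress and 20.7 min in DNA damage, against 21.5 min in reference 1 and 27.1 min in reference 2. The slope of TEF4 was the more negative of this pair in all 4 cultures, by -0.24 to -0.33. Of the release factors, SUP45 (eRF1) was called at -0.24 (limma, adjusted p = 0.022) and SUP35 (eRF3) was not, at -0.17 (adjusted p = 0.0524). SUP45 had a half-life of 15.1 min in oxidative stress and 12.3 min in DNA damage, against 14.8 min in reference 1 and 19.7 min in reference 2.

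The direction held in every culture for most of the set. Relative slopes were negative in all 4 cultures for 25 of 32 transcripts, against 30.2% of all genes tested. This included 20 of 23 initiation and 3 of 7 elongation factors. All 15 transcripts called faster in the references also had negative relative slopes under both stresses. The matching share among all genes called faster was not computed, so that count cannot be read as particular to these transcripts. The members' median relative slope in the references was -0.18, and -0.136 from 5 to 30 min.

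Brightness differed between the steps and is given beside these slopes. Of the 7 elongation factors, 5 had a reference level above 16 at time 0, where the interquartile range of all 152 genes was only -0.030 to 0.012. Members in that bin had a median of -0.016, with 2 initiation factors among the 7. From 14 to 15, where 546 genes had a median of -0.052 and an interquartile range of -0.24 to 0.072, the 9 members had a median of -0.21, inside that range. From 15 to 16, where 334 genes had a median of -0.020 and a range of -0.14 to 0.052, the 11 members had -0.24. From 12 to 13, where 1278 genes had a range of -0.11 to 0.12, the 4 members had -0.17. From 13 to 14, where 858 genes had a range of -0.19 to 0.074, the 1 member had -0.40. The members in these 2 lower bins were all initiation factors. The part of brightness in the contrast between initiation and elongation factors was not tested.

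**Figure D2:**
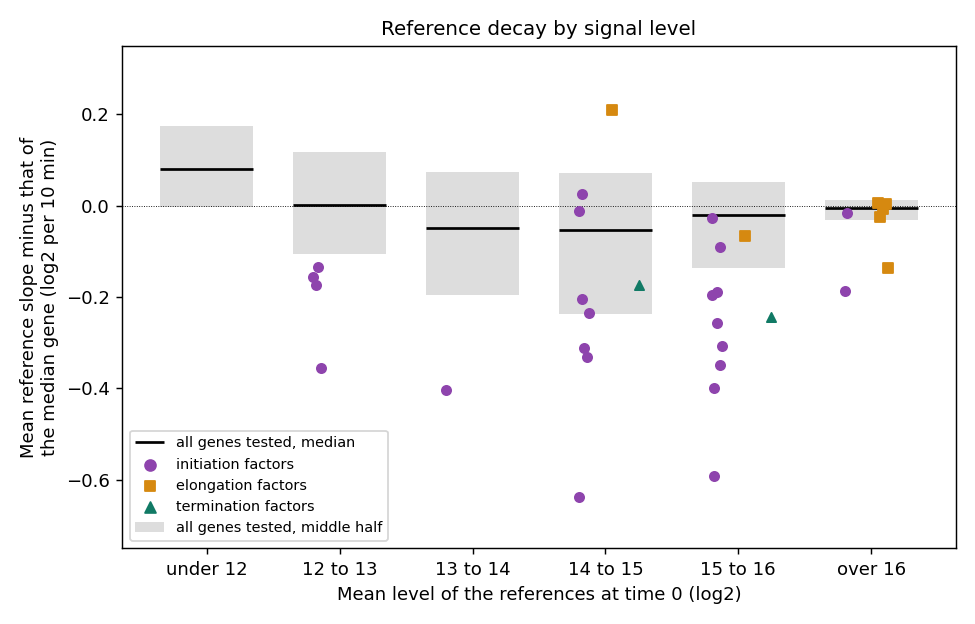
Relative reference decay slope (log2 per 10 min) against the mean reference level at time 0 (log2), with translation factors marked by step over all genes tested. The members' median was -0.21 between 14 and 15, inside the interquartile range of all genes, -0.24 between 15 and 16, below it, and -0.016 above 16. It was -0.17 between 12 and 13, and the 1 member between 13 and 14 had -0.40, both below the range of all genes.

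NIP1 stood apart from the other eIF3 subunits in its first 5 min. Between 0 and 5 min its relative level changed by -0.72 in oxidative stress and -1.25 in DNA damage, against -0.79 in reference 1 and -0.83 in reference 2. The other 5 eIF3 subunits changed by -0.14 to 0.13 in oxidative stress and -0.15 to 0.051 in DNA damage, against -0.23 to 0.019 in reference 1 and -0.18 to 0.20 in reference 2. No other member of the whole set went below -0.45 in any culture over these 5 min. From 5 to 30 min the relative slope of NIP1 was -0.032 in oxidative stress and -0.32 in DNA damage, against -0.18 in reference 1 and 0.084 in reference 2. The members' median slope in that window was -0.14 in oxidative stress and -0.23 in DNA damage, against -0.20 in reference 1 and -0.12 in reference 2. The early drop of NIP1 therefore appeared in all 4 cultures, and after it NIP1 was steeper than the members' median only in DNA damage. These changes of NIP1 were singled out after the time courses had been seen and were not tested.

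**Figure D3:**
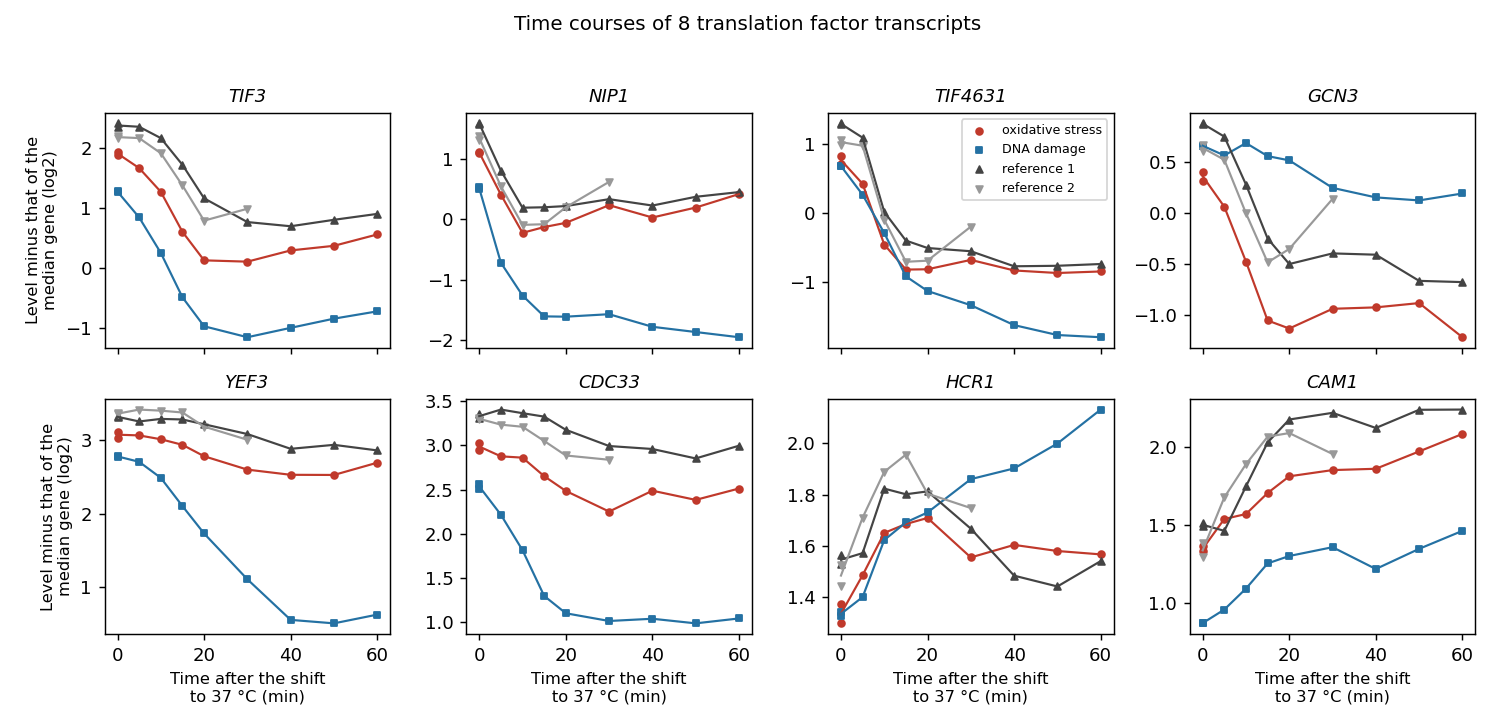
Relative level (log2, minus the median gene of the same array) of 8 translation factor transcripts against minutes after the shift to 37 °C, with 1 line for each culture and both arrays at time 0. NIP1 drops within 5 min in all cultures, GCN3 stays near its starting level only in the DNA damage culture up to 20 min, and YEF3 and CDC33 end lowest in that culture.

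The second question was whether the stresses changed the levels of these transcripts before transcription was stopped. Oxidative stress left none of the 32 called (limma, 0 at an unadjusted p under 0.05, smallest adjusted p = 0.438), against 12.5% of all genes tested. An unadjusted p under 0.05 was reached by 916 of all 3899 genes in the same limma test. Of all genes, 458 were called higher and 30 lower on deposited values, and 152 higher and 40 lower with each array centred on its median. The members' median level was -0.10 relative to the median gene, with -0.21 when set against reference 1 and -0.061 against reference 2. Relative levels were below 0 for 26 transcripts, and 20 were below 0 against each reference, compared with 36.4% of all genes. The standard error of 0.29 belongs to the deposited differences, whose median over the members was 0.19. RPG1, the largest eIF3 subunit, had the lowest relative difference, -0.42, from relative levels of 1.42 in oxidative stress against 2.08 in reference 1 and 1.79 in reference 2. SUI1 was lowest among start codon factors at -0.31, GCN3 within eIF2B at -0.30 and TIF4631 within the eIF4 group at -0.30. TEF4 was lowest among elongation factors at -0.22, and within eIF2 the range ran only from -0.06 for GCD11 to 0.06 for SUI2. The highest values were 0.09 for SUP45 and TIF11, 0.02 for GCD7 and CAM1, 0.01 for TIF34 and -0.03 for TIF4632, each within its step, and SUP35 was at -0.12. Among the accessory genes, ANB1, the hypoxic copy of eIF5A, was called lower at -1.59, a call not made after centring, and no synthetase or ribosomal protein was called.

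After MMS the relative level was below 0 for 31 of the 32 transcripts, and 26 were below 0 against each reference, compared with 40.1% of all genes. The median was -0.39, with -0.52 against reference 1 and -0.33 against reference 2, and it was -0.145 with quantile normalization. The 127 ribosomal protein genes had a median of -0.38 with 4 called lower, the 20 synthetases -0.32 with none called, and the 26 accessory genes -0.28 with 2 called lower, LIA1 at -0.84 and the ribosome recycling factor RLI1 at -0.74. After centring 1 of the ribosomal protein calls and neither accessory call held. By the test on deposited levels 2 of the 32 were called lower (limma, 15 at an unadjusted p under 0.05), against 3.15% of all genes lower and 6% in either direction. An unadjusted p under 0.05 was reached by 705 of all 3899 genes in the same limma test. Over all genes the calls were 111 higher and 123 lower, and 58 higher and 30 lower after centring. Both called transcripts, TIF3 and NIP1, encode initiation factors, which make up 23 of the 32 measured.

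TIF3 had a level of 15.24 in oxidative stress and 14.17 in DNA damage, against 15.42 in reference 1 and 15.04 in reference 2. The deposited difference of DNA damage from the references was -1.06 (SE 0.29; limma, adjusted p = 0.00862). Relative to the median gene it was -0.91, a ratio of 0.53. NIP1 had 14.44 in oxidative stress and 13.41 in DNA damage, against 14.63 in reference 1 and 14.21 in reference 2. The deposited difference of NIP1 was -1.01 (SE 0.29; limma, adjusted p = 0.0145), and the relative one was -0.86, a ratio of 0.55. For both genes the DNA damage culture lay below all 3 others. Neither call held once each array was centred on its median (limma, adjusted p = 0.0654 for TIF3 and 0.0828 for NIP1), where 2.26% of all genes were called. Over 8 alternatives tested with 1 value per culture, the adjusted p ran from 0.0107 to 0.70 for TIF3, with 3 calls, and from 0.0183 to 0.883 for NIP1, with 2 calls.

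Lower values that did not pass were spread over several steps. CDC33 had 15.43 in DNA damage, against 16.36 in reference 1 and 16.16 in reference 2, a deposited difference of -0.83 (limma, adjusted p = 0.0643) and a relative one of -0.68. TEF4 had 14.99 in DNA damage, against 15.89 in reference 1 and 15.74 in reference 2, a deposited difference of -0.83 (limma, adjusted p = 0.0662) and likewise a relative one of -0.68. In relative difference SUI3 followed at -0.65, EFB1 at -0.61, GCD11 at -0.51 and TIF11 at -0.47. The smallest shifts within their steps were -0.15 for TIF5, -0.14 for SUI2, -0.0014 for GCN3, -0.085 for HCR1, -0.35 for EFT2 and -0.38 for SUP45, beside -0.39 for SUP35. TIF4632 was the single value above 0, at 0.059, and within eIF2B the lowest was GCD2 at -0.44.

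Differences after MMS also varied with brightness. All genes with a reference level between 14 and 15 had a median difference of -0.21 after MMS, those between 15 and 16 had -0.31 and those above 16 had -0.39. Members in the same bins had -0.34, -0.45 and -0.46. The spread of bright probe sets was also narrowest in the DNA damage culture, with an upper spread at time 0 of 2.89, and 3.25 in oxidative stress, against 3.39 in reference 1 and 3.23 in reference 2. The part of brightness in the lower levels after MMS was not tested.

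**Figure D4:**
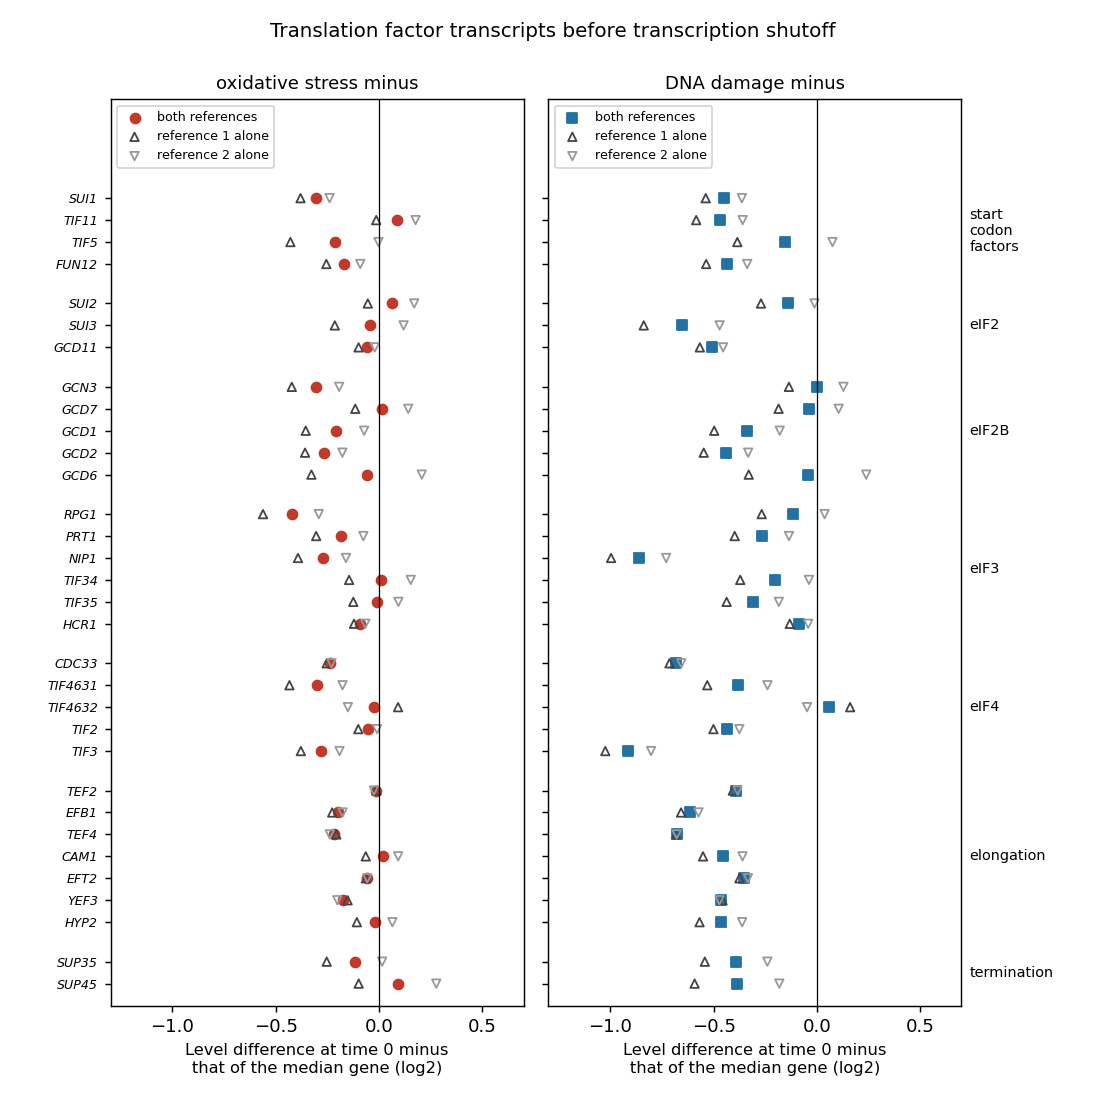
Difference in level at time 0 from the mean of both references, relative to the median gene (log2), for the 32 transcripts by step, with the oxidative stress culture in the left panel and the DNA damage culture in the right. Open triangles give the difference from each reference alone. Values after MMS are lowest for TIF3 (-0.91) and NIP1 (-0.86), and oxidative stress values run from -0.42 to 0.09.

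Setting one stress against the other, 4 of the 32 transcripts were called higher in oxidative stress than in DNA damage (limma, 18 at an unadjusted p under 0.05), against 7.98% of all genes higher and 8.31% in either direction. An unadjusted p under 0.05 was reached by 1232 of all 3899 genes in the same limma test. All 4 called members encode initiation factors, which make up 23 of the 32. The deposited difference was 1.07 for TIF3 (adjusted p = 0.0245), 1.05 for SUI3 (0.0296), 1.03 for NIP1 (0.0325) and 0.996 for TIF11 (0.0404), with an SE of 0.33 for each. SUI3 had 15.70 in oxidative stress and 14.65 in DNA damage, against 15.71 in reference 1 and 15.19 in reference 2. TIF11 had 15.85 in oxidative stress and 14.86 in DNA damage, against 15.66 in reference 1 and 15.29 in reference 2. The median gene itself was 0.49 higher in oxidative stress, where the technical arrays of time 0 differed by 0.36. Taking that 0.49 off leaves relative differences of 0.59 for TIF3, 0.56 for SUI3, 0.54 for NIP1 and 0.51 for TIF11. None of the 4 was called after centring (limma, adjusted p = 0.431 to 0.489), where 0.205% of all genes were.

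The last question was whether the stresses changed decay. From 0 to 30 min no member passed in oxidative stress against the references (limma, 0 at an unadjusted p under 0.05, smallest adjusted p = 0.999), against 0.795% of all genes. The differences in relative slope ran from -0.17 for SUI2 to 0.11 for TIF5 around a median of -0.027, and the SE of the deposited difference was 0.16. After MMS none passed either (limma, 2 at an unadjusted p under 0.05), against 1.82% of all genes. The members' median difference was -0.088, compared with -0.31 for ribosomal proteins, of which 22 of 127 were called lower as deposited and 0 after centring. None passed between the stresses (limma, 3 at an unadjusted p under 0.05), against 2.1% of all genes. In the same limma slope tests, all 3899 genes gave 158 with an unadjusted p under 0.05 in oxidative stress. They gave 407 after MMS and 397 between the stresses.

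Over the shorter window of 0 to 20 min, an alternative setting, 5 members were called in DNA damage against the references, compared with 16% of all genes, 3 with slower and 2 with faster decay. With the arrays also centred, a setting added after the data were seen, 5 were called against 5.21% of all genes, 1 with slower and 4 with faster decay. Over all genes the split was 518 slower and 105 faster as deposited, and 83 slower and 120 faster with centring. The genes called under both settings were GCN3, SUI1 and CDC33. Shares of all genes called under both settings, or under either, were not computed. TIF5 and RPG1 were called only on deposited values, where the median gene itself differed by 0.13, and TIF3 and YEF3 only on centred values. Of these 7, 6 encode initiation factors, which make up 23 of the 32 transcripts measured.

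GCN3, the alpha subunit of eIF2B, was the transcript called slower in DNA damage under both settings of this window. Its half-life over 0 to 20 min was 7.47 min in oxidative stress and 23.1 min in DNA damage, against 7.997 min in reference 1 and 8.41 min in reference 2. The relative level of GCN3 at 20 min was -1.13 in oxidative stress and 0.51 in DNA damage, against -0.50 in reference 1 and -0.35 in reference 2. DNA damage therefore stood above the other 3 cultures, although at time 0 it lay within their range, at 0.66 against 0.36 in oxidative stress, 0.87 in reference 1 and 0.63 in reference 2. The deposited slope of GCN3 differed from the references by 0.79 (SE 0.15; limma, adjusted p = 4.55e-06). The relative difference was 0.66 (limma, adjusted p = 0.0495 on centred arrays), higher than for 98.7% of all genes. In oxidative stress minus DNA damage the slope of GCN3 differed by -0.91 as deposited (limma, adjusted p = 6.00e-06) and by -0.79 relative to the median gene (adjusted p = 0.0472 centred), where 11.9% of all genes were called as deposited and 4.31% centred. Over 0 to 30 min the GCN3 difference from the references was 0.29 as deposited (limma, adjusted p = 0.521) and 0.26 relative to the median gene. Over 9 alternatives tested with 1 value per culture the adjusted p ran from 4.55e-06 to 1.00, with 2 calls. By 30 min the relative level of GCN3 was -0.94 in oxidative stress and 0.24 in DNA damage. The references then had -0.40 in reference 1 and 0.14 in reference 2, so reference 2 lay near DNA damage. At 60 min the relative level was -1.21 in oxidative stress and 0.19 in DNA damage, against -0.68 in reference 1.

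SUI1 and CDC33 were called faster in the DNA damage culture under both settings of the 0 to 20 min window. The centred setting was added after the data were seen. The half-life of SUI1, which encodes eIF1, was 15.8 min in oxidative stress and 9.96 min in DNA damage, against 20.8 min in reference 1 and 15.8 min in reference 2. The slope difference was -0.45 as deposited (SE 0.15; limma, adjusted p = 0.0209) and -0.58 relative to the median gene (adjusted p = 0.0335 centred). For CDC33 the half-life was 13.04 min in oxidative stress and 8.84 min in DNA damage, against 17.2 min in reference 1 and 12.5 min in reference 2. Its difference was -0.44 as deposited (SE 0.15; limma, adjusted p = 0.0221) and -0.57 relative to the median gene (adjusted p = 0.0372 centred). In both cases DNA damage had the shortest half-life of the 4 cultures. Over 9 alternatives tested with 1 value per culture each gene was called in these 2 settings, and the adjusted p otherwise ran up to 1.00. In the main window of 0 to 30 min neither gene passed, with deposited differences of -0.27 for SUI1 and -0.34 for CDC33.

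YEF3 had the largest difference of any member after MMS over 0 to 30 min, though it did not pass. Its relative slope was -0.20 in oxidative stress and -0.60 in DNA damage, against -0.11 in reference 1 and -0.16 in reference 2. The half-life was 20.3 min in oxidative stress and 10.9 min in DNA damage, against 19.7 min in reference 1 and 21.7 min in reference 2. The difference after MMS over 0 to 30 min was -0.44 as deposited (SE 0.16; limma, adjusted p = 0.155) and -0.47 relative to the median gene. Over 0 to 20 min it was -0.31 as deposited (limma, adjusted p = 0.139) and -0.44 relative to the median gene (adjusted p = 0.0460 centred). Over 9 alternatives tested with 1 value per culture the adjusted p ran from 0.0460 to 1.00. At 60 min the relative level of YEF3 was 2.69 in oxidative stress and 0.63 in DNA damage, against 2.86 in reference 1.

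At 60 min, several members stood well apart in the DNA damage culture. The relative level of SUP35 was 1.45 in oxidative stress and -0.51 in DNA damage, against 1.52 in reference 1. That of NIP1 was 0.42 in oxidative stress and -1.96 in DNA damage, against 0.45 in reference 1. HCR1 was highest in that culture, with 1.57 in oxidative stress and 2.13 in DNA damage, against 1.54 in reference 1. With 1 culture on each side after 30 min these late values have no test. Over 0 to 30 min, 18 of 32 transcripts had a relatively faster slope in DNA damage than in both references, compared with 38.6% of all genes, and 7 had a slower one, compared with 41.2%. The difference in slope after MMS also varied with brightness, with a median of -0.16 for all genes above 16 and -0.16 for the members there, and of -0.030 for all genes from 14 to 15 and 0.012 for the members. From 15 to 16 it was -0.058 for all genes and -0.10 for the 11 members. From 12 to 13 it was 0.011 for all genes and -0.078 for the 4 members. The 1 member from 13 to 14 had 0.26, against 0.0065 for all genes.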

How the data were processed

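Poly(T)-primed, biotin-labelled RNA from 4 cultures was hybridised to 37 Affymetrix arrays. The deposited values are log2 intensities. The submitters' processing notes name RMA as the authors' tool, in a version not given in the sources used here. Values of 5900 probe sets ranged from 3.69 to 17.50, and arrays were not centred on a common median. Probe sets were named through GEO's platform annotation, and 5498 had 1 gene. Genes with a mean above the 30th percentile (11.04) over the 28 arrays at 0 to 30 min were tested. The number of arrays limits the precision.

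Per culture, the level at time 0 was the mean of the technical arrays and the slope a least-squares line over 0 to 30 min. limma 3.58.1 in R 4.3.3 compared these values over all 3899 genes, 1 value per culture, with Benjamini-Hochberg adjustment at 0.05. Reference decay was tested against the median gene with the 2 references alone. Scripts were tested on simulated data. Figures used Python 3.11.15 and matplotlib 3.10.9. The members and lists were chosen with earlier results of these data known. All members were named. Values in every culture are given for members called in any of the 7 comparisons, with the highest and lowest level difference for each step, and other lists' genes are named only where called, at most 3 each way. Alternatives covered array scaling, filters, windows, time 0 arrays, probe sets per gene, error and left-out references. The window of 0 to 20 min with centring, array scatter with centring, and the brightness bins were chosen after seeing the data.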

Additional observations from a re-analysis of the deposited data

Results flagged for a closer look

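For 4 initiation factor transcripts the effect of the stresses on the level at time 0 differed between the stresses, by limma's test of oxidative stress minus DNA damage on deposited values. The deposited differences were 0.996 for TIF11 (adjusted p = 0.0404), 1.05 for SUI3 (adjusted p = 0.0296), 1.03 for NIP1 (adjusted p = 0.0325) and 1.07 for TIF3 (adjusted p = 0.0245), each from 1 culture against 1 culture. Relative to the median gene, which differed by 0.49, they were 0.51 for TIF11, 0.56 for SUI3, 0.54 for NIP1 and 0.59 for TIF3. The calls were lost after centring (adjusted p = 0.489 for TIF11 and SUI3, 0.480 for NIP1 and 0.431 for TIF3). Over 8 alternatives tested with 1 value per culture, the adjusted p ran from 0.0446 to 0.755 for TIF11, from 0.0340 to 0.727 for SUI3, from 0.0365 to 0.601 for NIP1 and from 0.0285 to 0.648 for TIF3.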

How the results depend on the processing

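None of the members' medians changed sign under the alternatives tried, but the split of called members did shift. Counts of called members depended on scaling and on what served as error. For levels after MMS the count was 2, and 0 with arrays centred, with quantile normalization, with spike-in means equalised or with either time 0 array alone, 1 with the filter at the 50th percentile, 21 with array scatter as error and 31 with array scatter and centring. For levels in oxidative stress minus DNA damage it was 4, and 0 with arrays centred, quantile normalization, spike-in means equalised, the filter at the 50th percentile or either time 0 array alone, 2 with no filter, 26 with array scatter and 28 with array scatter and centring. For levels in oxidative stress it was 0, and 23 with array scatter and centring. For slopes in oxidative stress it was 0, and 1 with array scatter and centring. For slopes after MMS it was 0, and 1 with array scatter, 5 over 0 to 20 min (3 higher, 2 lower), 5 over 0 to 20 min with centring (1 higher, 4 lower) and 12 with array scatter and centring. For slopes between the stresses it was 0, and 1 with array scatter (higher), 1 over 0 to 20 min with or without centring (lower) and 10 with array scatter and centring (7 higher, 3 lower). For reference decay it was 16, and 7 with no filter and 0 over 5 to 30 min. Array scatter takes arrays of 1 culture as replicates, so its p-values are too small.

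The members' median moved to -0.145 from -0.39 for levels after MMS and to 0.072 from 0.24 between the stresses with quantile normalization. For slopes between the stresses it moved to 0.025 from 0.07 with no filter and to 0.015 over 0 to 20 min. For reference decay it was -0.309 over 0 to 20 min and -0.136 over 5 to 30 min. The cause was not tested. Without either reference the medians lay between -0.061 and -0.21 for levels in oxidative stress, -0.333 and -0.515 for levels after MMS, -0.005 and -0.046 for slopes in oxidative stress, and -0.092 and -0.095 for slopes after MMS. No paired analysis was possible because each stress has 1 culture.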
